A study of Mus musculus with 6 samples.

Results

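The genes that encode WNT ligands, their frizzled (FZD) and other receptors, the LGR receptors, the R-spondins and the proteins that process WNT ligands were described in cultured ureters of mouse embryos. The list held 45 genes chosen by symbol from the 56748 genes of the deposited count table. Of these, 38 had at least 10 counts in 3 or more of the 6 samples, and all 38 were among the 18188 genes tested. The samples were whole ureters of wildtype NMRI embryos, explanted at E12.5 and kept for 18 h on transwell membranes. The control group (n = 3) received water and the LiCl group (n = 3) received 15 mM LiCl, which blocks the kinase GSK3. Both compartments of the organ, the ureteric epithelium (UE) and the ureteric mesenchyme (UM), were in each sample, and the number of ureters per sample is not given in the sources used here.

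WNT ligands are acylated by PORCN, carried to the cell surface by WLS, and bind an FZD together with the co-receptors LRP5 or LRP6. Binding stops the degradation of β-Catenin (CTNNB1), for which GSK3 is needed, so that LiCl acts on the pathway below the receptors. R-spondins bind LGR receptors and protect FZDs from removal by the ubiquitin ligases ZNRF3 and RNF43. A further branch that does not need CTNNB1 uses receptors such as ROR2, RYK and PTK7, with WNT5A as its best known ligand. In the early ureter, WNT ligands of the UE are known to act on the UM.

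Total counts per sample were between 28473436 and 31266945, with overlapping ranges in both groups. Markers of cell types, here and in the later lists, were called at an adjusted p under 0.05 by the edgeR test described below. By this test, 21.1% of all tested genes were higher and 22.4% lower. Of 12 UE markers, 10 were lower after LiCl, *Epcam* was higher and *Shh* did not pass. Their summed level was from 447 to 591 FPKM (fragments scaled by the authors to gene length and a size factor per sample) in the control. With LiCl, it was from 339.6 to 365 FPKM. Of 8 UM markers, 5 were lower and 2 higher, and their sum was from 446 to 454 FPKM in the control and from 399.6 to 409.7 FPKM with LiCl. No gene of both lists was at 0, so both compartments were present in each sample. In such bulk samples, fewer cells of a type and less RNA per cell cannot be told apart. The LiCl replicates 1 and 3 stood apart by skeletal muscle genes, 9 of which summed to 1069 and 1957 counts, against 207 in LiCl replicate 2 and 162 to 218 in the control. Calls of listed genes that changed without these 2 samples are named where they are given.

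Of the 38 genes, 11 rose and 13 fell after LiCl at an adjusted p under 0.05 (edgeR's quasi-likelihood test, Benjamini-Hochberg over all tested genes), which is 63.2% of them. Over all tested genes, 43.5% passed this test, 21.1% as higher and 22.4% as lower. The changes were mostly small. With the additional threshold of a 2-fold change, *Wnt6* and *Wnt9a* were higher and *Wnt2*, *Wnt16* and *Rspo2* lower, where 2.74% of all tested genes were called higher and 4.59% lower (7.33% in all). *Wnt16* was kept by its control counts alone, which favoured a gene that falls. With at least 10 counts required in every sample, *Wnt16* was not tested, and 12 genes fell, 2 of them by 2-fold. The 38 genes had a median log2 change of -0.05, against -0.01 for all tested genes, and the median of its absolute size was 0.38 against 0.26. The 2 groups of samples did not overlap in 26 of the 38 genes, 11 with higher and 15 with lower values after LiCl. Among all tested genes, the groups did not overlap in 54.2%, with 26.4% higher and 27.8% lower. A p-value here measures the spread between these samples, since no label states that they came from separate litters or cultures.

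**Figure D1:**
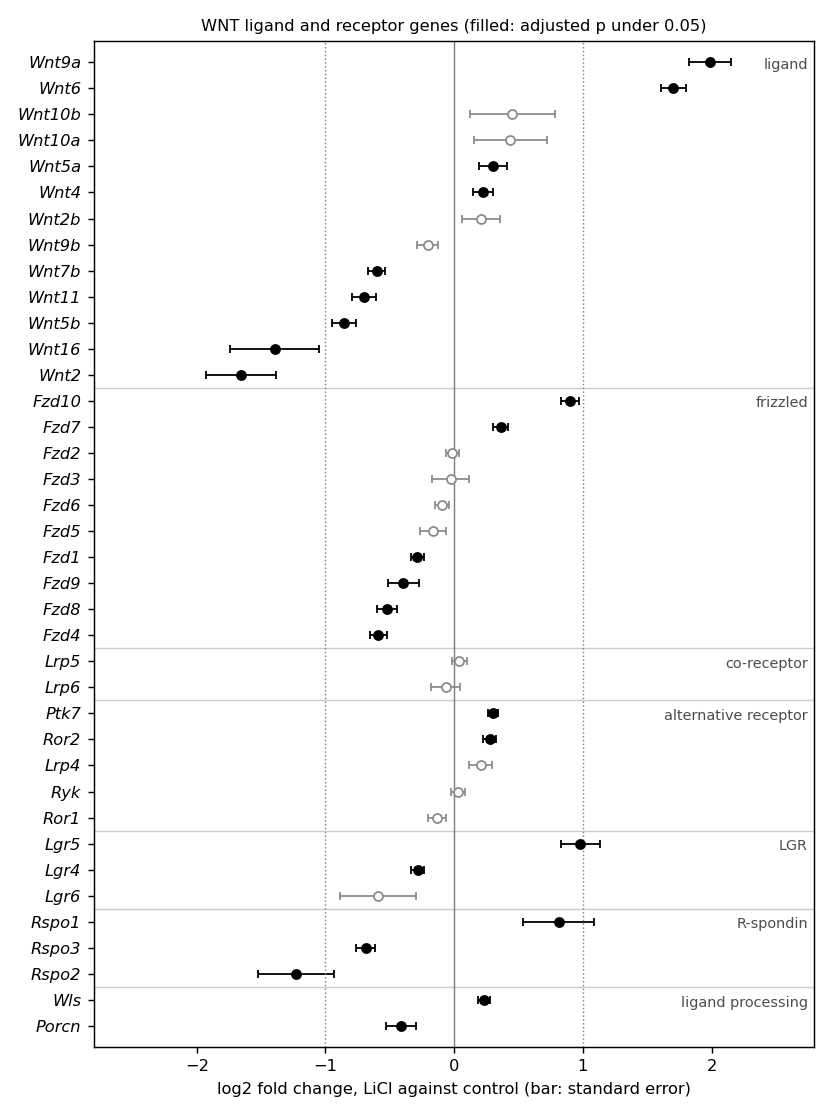
The log2 fold change (LiCl against control, horizontal axis) of the 38 genes, ordered within their classes, with the standard error as bars. Filled points passed an adjusted p of 0.05 and dotted lines mark a 2-fold change, which only 2 ligands passed upward (*Wnt9a*, *Wnt6*) and 3 genes downward (*Wnt2*, *Wnt16*, *Rspo2*). *Wnt16* was kept by its control counts alone.

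Among the 19 ligand genes, 13 were kept. Of these, 4 rose, 5 fell and 4 did not pass the test. The ligand genes *Wnt6* and *Wnt9a* showed the strongest increases of all 38 genes. *Wnt6* (ENSMUSG00000033227) encodes a ligand of epithelia such as the tips of the ureteric bud. Its level was 2.28, 2.18 and 2.11 FPKM in control replicates 1 to 3, and 6.89, 7.78 and 6.95 FPKM in LiCl replicates 1 to 3. All LiCl samples were thus well above all controls, with a log2 fold change of 1.70 (SE, the standard error of the estimate, 0.10, edgeR adjusted p = 2.6e-06). *Wnt9a*, known for its role in joint formation, had 0.944, 0.664 and 0.99 FPKM in the control and 3.89, 3.28 and 3.25 FPKM with LiCl. Its log2 fold change was 1.99 (SE 0.16, edgeR adjusted p = 2.1e-05), which corresponds to a 3.96-fold change. Both genes were called without LiCl replicates 1 and 3 as well, with log2 fold changes of 1.82 and 1.91.

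The promoters of these 2 ligands are shown with that of *Fzd7* and 1 of 2 windows of *Wnt11*, chosen since each held a sequence that resembles the binding site of TCF/LEF factors, the DNA-binding partners of CTNNB1. Each line gives 250 bases before to 50 bases after the start site from RefSeq (GRCm38.p6), 5′ to 3′ on the strand of the gene, with matches in capitals. The first bases after the start in the *Fzd7* window were not found in its GENCODE transcripts, so its positions hold for the RefSeq start alone.
Wnt6 (chr1:74771642-74771941, plus strand): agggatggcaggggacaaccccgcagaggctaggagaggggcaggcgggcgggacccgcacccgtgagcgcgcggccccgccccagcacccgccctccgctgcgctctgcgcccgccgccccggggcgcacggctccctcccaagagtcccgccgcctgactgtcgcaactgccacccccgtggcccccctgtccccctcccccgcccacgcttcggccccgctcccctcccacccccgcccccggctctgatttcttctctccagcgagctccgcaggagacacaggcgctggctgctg
Wnt9a (chr11:59306680-59306979, plus strand): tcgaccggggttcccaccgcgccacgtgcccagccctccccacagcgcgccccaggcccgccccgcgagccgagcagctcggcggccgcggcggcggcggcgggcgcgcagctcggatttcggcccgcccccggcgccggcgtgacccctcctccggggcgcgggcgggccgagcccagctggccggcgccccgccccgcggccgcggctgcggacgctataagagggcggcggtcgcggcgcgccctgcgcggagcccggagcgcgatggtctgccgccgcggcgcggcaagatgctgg
Fzd7 (chr1:59481897-59482196, plus strand): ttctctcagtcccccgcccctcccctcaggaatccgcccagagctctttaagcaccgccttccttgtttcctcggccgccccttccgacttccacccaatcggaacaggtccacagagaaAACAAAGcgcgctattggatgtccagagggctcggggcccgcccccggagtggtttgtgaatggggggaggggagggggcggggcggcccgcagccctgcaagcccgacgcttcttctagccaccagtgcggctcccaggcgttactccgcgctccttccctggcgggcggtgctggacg
Wnt11 (chr7:98834862-98835161, plus strand): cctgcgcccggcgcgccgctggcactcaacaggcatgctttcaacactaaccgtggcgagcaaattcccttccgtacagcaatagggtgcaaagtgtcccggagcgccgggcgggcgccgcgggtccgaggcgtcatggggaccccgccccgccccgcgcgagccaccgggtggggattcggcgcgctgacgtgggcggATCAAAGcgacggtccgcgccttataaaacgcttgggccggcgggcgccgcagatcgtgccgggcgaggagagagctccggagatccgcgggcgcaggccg
The words searched on both strands were CTTTGAA and CTTTGAT as well as CTTTGTA and CTTTGTT. *Fzd7* held AACAAAG from position -130 and *Wnt11* held ATCAAAG from position -51, both on the opposite strand, whereas *Wnt6* and *Wnt9a* held none of these words in their windows. For 30 of the 45 genes, promoters were found in 33 windows, of which 4 (12.1%) had a match, those of *Fzd7*, *Wnt3*, 1 of 2 windows of *Wnt11* and 1 of 3 windows of *Wnt5b*. No window was used for *Wnt5a*, *Wnt7b*, *Wnt8a*, *Wnt10a*, *Fzd2*, *Fzd3*, *Fzd6*, *Fzd8*, *Lrp4*, *Lrp5*, *Lrp6*, *Lgr5*, *Rspo2*, *Rspo3* and *Porcn*. Of all 32851 windows of the table, 16.9% had one. Of the genes with a match, *Fzd7* rose, *Wnt11* and *Wnt5b* fell and *Wnt3* was hardly detected. A relation between a match and the direction of change was not tested, and 15 of the 45 genes had no window. The windows of the listed genes were rich in G and C, with a median of 69.0% and 29 CpGs, against 52.7% and 7 CpGs over all windows.

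*Wnt7b* was the most abundant ligand gene in the control. It encodes the UE ligand that is regarded as the main signal to the UM. Its level was 22.3, 21.5 and 19.1 FPKM in the control and 14.3, 14.0 and 13.6 FPKM with LiCl, so that it fell 1.52-fold without overlap (log2 fold change -0.60, SE 0.06, edgeR adjusted p = 0.00011). The decrease was smaller than that of many of the 12 UE markers, whose median log2 fold change was -1.09. These markers did not move together. While 10 were lower, *Epcam* rose by 0.37 and *Shh* did not pass at 0.05 (edgeR adjusted p = 0.77). The list includes genes of UE differentiation, such as *Upk1b* (-1.95) and *Foxa1* (-1.76), so its median does not measure the amount of UE alone. The part of the UE markers in this result was not tested. *Wnt9b*, another UE ligand, had 5.92, 6.91 and 5.83 FPKM in the control and 5.04, 5.62 and 5.73 FPKM with LiCl. Although the groups of *Wnt9b* did not overlap, its log2 fold change of -0.21 (SE 0.08) did not pass the test (edgeR adjusted p = 0.069), except with library size as the only scaling (edgeR adjusted p = 0.042).

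The strongest decrease of all 38 genes was that of *Wnt2*, which encodes a ligand of mesenchymal tissues such as that of the lung. It had 2.33, 2.87 and 2.58 FPKM in the control and 0.785, 1.24 and 0.473 FPKM with LiCl. The LiCl samples varied more than the controls but were all lower, with a log2 fold change of -1.66 (SE 0.27, edgeR adjusted p = 0.0012). Without LiCl replicates 1 and 3, the log2 fold change was -1.07 (edgeR adjusted p = 0.01). *Wnt5b* fell from 5.86 ± 0.36 FPKM (SD, n = 3) to 3.28 ± 0.228 FPKM (SD, n = 3), a log2 fold change of -0.85 (SE 0.09, edgeR adjusted p = 0.00013). *Wnt11*, a ligand of the ureteric tips in the kidney, fell from 3.81 ± 0.351 to 2.37 ± 0.0951 FPKM (SD, n = 3 each), a log2 fold change of -0.70 (SE 0.09, edgeR adjusted p = 0.00035). Of 7 markers of ureteric tip and collecting duct, 5 were tested, of which *Ret* and *Etv5* were lower and *Etv4* was higher, and *Aqp2* had 0 or 1 counts in each sample. The summed level of these 7 genes was from 21.6 to 23.3 FPKM in the control and from 17.7 to 19.9 FPKM with LiCl, and its part in the decrease of *Wnt11* was not tested. *Wnt16* was near the detection limit, with 26, 16 and 24 counts in the control and 7, 9 and 8 counts with LiCl. It was kept by its control counts alone, so the filter favoured a gene that falls. Its log2 fold change was -1.40 (SE 0.35, edgeR adjusted p = 0.01), and without LiCl replicates 1 and 3 the edgeR adjusted p was 0.19.

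*Wnt5a*, the ligand of the CTNNB1-independent branch, and *Wnt4*, which the kidney needs for nephron formation, followed *Wnt7b* in abundance and rose weakly. *Wnt5a* had 10.4, 8.36 and 9.82 FPKM in the control and 10.7, 13.7 and 11.2 FPKM with LiCl, and *Wnt4* 8.71, 9.64 and 7.71 FPKM against 9.97, 10.5 and 10.3 FPKM. The log2 fold changes were 0.30 (SE 0.11, edgeR adjusted p = 0.048) and 0.22 (SE 0.08, edgeR adjusted p = 0.043). Neither call was stable. The edgeR adjusted p of *Wnt5a* was 0.14 without control replicate 2 or LiCl replicate 2, 0.082 without control replicate 3 and 0.057 without LiCl replicate 3. For *Wnt4*, it was 0.08 without control replicate 1, 0.13 without control replicate 3, and 0.057, 0.099 and 0.097 without LiCl replicates 1, 2 and 3. With LiCl replicates 1 and 3 both left out, *Wnt5a* passed at a log2 fold change of 0.52 (edgeR adjusted p = 0.014) and *Wnt4* did not (0.15). Of 8 markers of nephrons and their progenitors, 7 were tested, with 2 higher and 3 lower, and their summed level was from 38.3 to 38.8 FPKM in the control and from 32.6 to 38.6 FPKM with LiCl. *Nphs1*, which defines podocytes, had 1 count in 1 sample and 0 in the others.

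The remaining kept ligands, *Wnt2b*, *Wnt10a* and *Wnt10b*, had log2 fold changes of 0.21, 0.44 and 0.45 with SEs of 0.15, 0.28 and 0.33, and their groups overlapped. *Wnt2b* lay between 0.691 and 0.915 FPKM, and *Wnt10a* and *Wnt10b* were at most 0.561 FPKM in every sample. Not kept were *Wnt1* and *Wnt3a* with 0 counts in all 6 samples, *Wnt3* with 0 to 5, *Wnt8a* with 0 to 6, *Wnt8b* with 2 to 6 and *Wnt7a* with 2 to 8 counts. A count of 0 allows up to 3 counts, that is 0.0959 to 0.105 CPM (counts scaled to library size) in these libraries. Several ligand genes are direct neighbours in the genome, with no other protein-coding gene between them (RefSeq, GRCm38.p6), and their levels differed within each pair. *Wnt6* rose, whereas its neighbour *Wnt10a* was at most 0.561 FPKM and did not pass the test. *Wnt9a* rose, whereas its neighbour *Wnt3a* was not detected. Of the pairs *Wnt9b* with *Wnt3* and *Wnt10b* with *Wnt1*, the latter gene of each had from 0 to 5 counts.

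**Figure D2:**
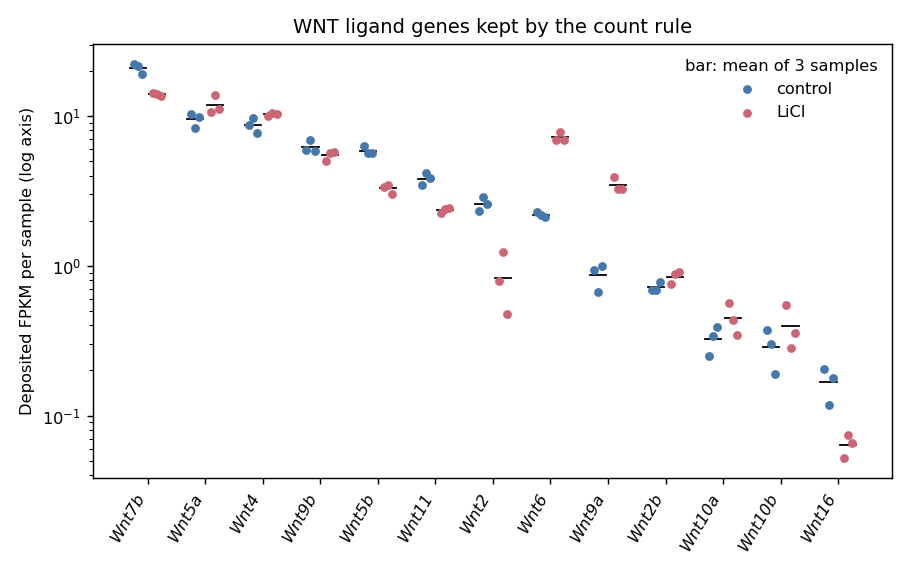
The FPKM of the 13 kept ligand genes in each of the 3 control and 3 LiCl samples, on a log axis and ordered by the control mean, with black bars for the mean of 3 samples. All LiCl points of *Wnt6* and *Wnt9a* lie above and those of *Wnt2* below the controls, whereas the points of *Wnt2b*, *Wnt10a* and *Wnt10b* overlap.

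The order of the ligand genes by FPKM changed. In the control, *Wnt7b* ranked first without overlap, followed by *Wnt5a* and *Wnt4*, by *Wnt9b* and *Wnt5b*, whose ranges overlapped within each of these pairs, and then by *Wnt11*, *Wnt2*, *Wnt6* and *Wnt9a*. With LiCl, the ranges of *Wnt7b* and *Wnt5a* overlapped, *Wnt6* had moved from rank 8 to rank 4, and *Wnt9a* from rank 9 to rank 6, where its range overlapped that of *Wnt5b*. The summed FPKM of all 19 ligand genes overlapped between the groups, with 59.3 to 64.3 in the control and 58.8 to 63.9 with LiCl, so that the sum differed less than its parts. *Wnt7b* made up 33.6 ± 1.31% of this sum in the control and 23.1 ± 1.15% with LiCl (SD, n = 3 each). *Wnt6* made up 3.51 ± 0.0666% and 11.9 ± 0.2765%, and *Wnt9a* 1.40 ± 0.318% and 5.74 ± 0.743% (SD, n = 3 each). For these 3 shares, every LiCl sample lay on the same side of every control sample, and the two-sided exact permutation test gave p = 0.1, the smallest value that 3 against 3 samples allow (adjusted 0.171 over 36 shares).

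**Figure D3:**
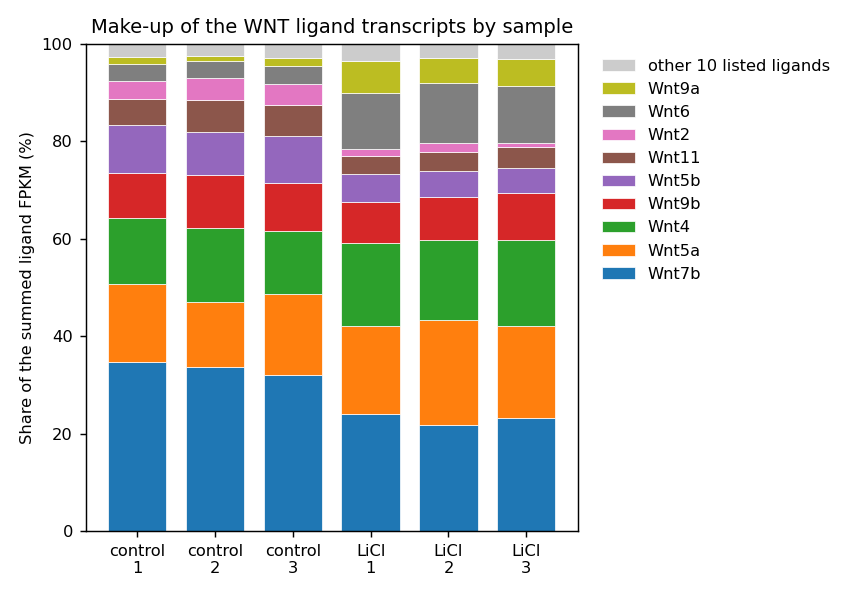
The share (%) of 9 ligand genes, and of the other 10 together in light grey, in the summed FPKM of the 19 ligand genes, with 1 stacked bar per sample. In the 3 LiCl samples, the share of *Wnt7b* is 21.9% to 24.2%, against 32.1% to 34.7% in the controls, and the bands of *Wnt6* and *Wnt9a* are wider.

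All 10 *Fzd* genes, which encode the receptors for the ligands, were kept. Of these, 2 rose, 4 fell and 4 did not pass the test. *Fzd10* showed the strongest change. It had 8.46, 7.84 and 7.66 FPKM in the control and 14.0, 16.1 and 15.2 FPKM with LiCl, which gave a log2 fold change of 0.90 (SE 0.07, edgeR adjusted p = 1.6e-05). The increase was just under 2-fold and reached 1.00 on the log2 scale when LiCl replicates 1 and 3 were left out. *Fzd7* rose from 66.8, 68.1 and 66.3 FPKM to 81.3, 85.0 and 95.1 FPKM, without overlap, by a log2 fold change of 0.36 (SE 0.06, edgeR adjusted p = 0.0011).

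*Fzd1*, the most abundant receptor gene of the list and a known FZD gene of the UM, fell. Its level was 173, 159 and 161 FPKM in the control and 140.3, 134 and 135 FPKM with LiCl. The 3 LiCl samples were close to each other and below all controls, with a log2 fold change of -0.29 (SE 0.05, edgeR adjusted p = 0.0014). The 8 UM markers, of which 5 were lower and 2 higher, had a median log2 fold change of -0.22. Their part in the decrease of *Fzd1* was not tested. *Fzd4*, which also serves as receptor for norrin in vessels, fell from 12.6 ± 0.888 to 8.46 ± 0.437 FPKM (SD, n = 3 each), a log2 fold change of -0.59 (SE 0.07, edgeR adjusted p = 0.00013). Of 6 endothelial markers, *Tek* was lower and 5 did not pass the test, and their sum was from 83.8 to 106 FPKM in the control and from 77.9 to 96.2 FPKM with LiCl, the part of which in the decrease of *Fzd4* was not tested. *Fzd8* fell from 3.66 ± 0.319 to 2.58 ± 0.0782 FPKM (SD, n = 3 each), a log2 fold change of -0.52 (SE 0.08, edgeR adjusted p = 0.00075). *Fzd9* fell from 2.56 ± 0.176 to 1.97 ± 0.157 FPKM (SD, n = 3 each), with a log2 fold change of -0.39 (SE 0.12, edgeR adjusted p = 0.028). This call was the least stable among the *Fzd* genes. It was lost without control replicate 2 or 3 (edgeR adjusted p = 0.051 and 0.1) and without LiCl replicate 2 or 3 (0.089 and 0.062). It was also lost without both LiCl replicates 1 and 3, at a log2 fold change of -0.52. With all samples kept, it did not pass with DESeq2 (DESeq2 adjusted p = 0.088) or without the count filter (edgeR adjusted p = 0.072). Nor did it pass with limma on unfiltered log2(FPKM + 1) (limma adjusted p = 0.064).

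*Fzd2*, *Fzd3*, *Fzd5* and *Fzd6* had overlapping groups and log2 fold changes between -0.17 and -0.01. *Fzd2* was the third most abundant, with 58.1, 59.8 and 61.4 FPKM in the control and 60.04, 62.8 and 57.0 FPKM with LiCl. *Fzd3* spread widely within both groups, from 6.12 to 8.22 FPKM in the control and from 5.64 to 8.26 FPKM with LiCl, so that a small change would not have been detectable. The summed FPKM of the 10 *Fzd* genes was 330.3 to 345 in the control and 324 to 335 with LiCl. The share of *Fzd1* in this sum was 48.9 ± 1.255% in the control and 41.5 ± 1.54% with LiCl (SD, n = 3 each), and that of *Fzd7* was 19.9 ± 0.627% and 26.4 ± 1.76% (SD, n = 3 each). Both shares did not overlap between the groups (p = 0.1 by the two-sided exact permutation test, its lowest value here).

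The co-receptor genes *Lrp5* and *Lrp6* did not pass the test. *Lrp5* had 12.3, 11.7 and 12.6 FPKM in the control and 11.9, 12.8 and 13.4 FPKM with LiCl, and *Lrp6* 23.1, 17.6 and 20.5 FPKM against 17.0, 22.1 and 20.2 FPKM. Their log2 fold changes were 0.04 (SE 0.06) and -0.07 (SE 0.11), and both groups overlapped.

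Of the 5 other receptor genes, *Ptk7* and *Ror2* rose. Both are receptors of the CTNNB1-independent branch and of tissue polarity. *Ptk7* had 76.8, 74.9 and 77.4 FPKM in the control and 94.7, 97.0 and 93.9 FPKM with LiCl (log2 fold change 0.30, SE 0.04, edgeR adjusted p = 4e-04). *Ror2* had 10.1, 9.58 and 10.1 FPKM against 12.0, 12.4 and 12.1 FPKM (log2 fold change 0.28, SE 0.05, edgeR adjusted p = 0.0022). The increases were small, but the samples of each group differed little and the groups did not overlap. *Ror1* had 27.8, 25.5 and 27.1 FPKM against 22.7, 26.9 and 24.6 FPKM, and *Ryk* 19.3, 19.7 and 17.8 FPKM against 20.3, 19.1 and 19.2 FPKM. Their log2 fold changes of -0.13 and 0.03 did not pass the test (edgeR adjusted p = 0.14 and 0.7), although *Ror1* passed as lower without LiCl replicate 2 (edgeR adjusted p = 0.038). *Lrp4*, which binds the WNT antagonists DKK1 and sclerostin, had a log2 fold change of 0.21 (SE 0.09, edgeR adjusted p = 0.087). It passed without control replicate 1 or LiCl replicate 1 (edgeR adjusted p = 0.021 and 0.029). With all samples kept, it also passed with DESeq2 (DESeq2 adjusted p = 0.046) and without the count filter (edgeR adjusted p = 0.0086).

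**Figure D4:**
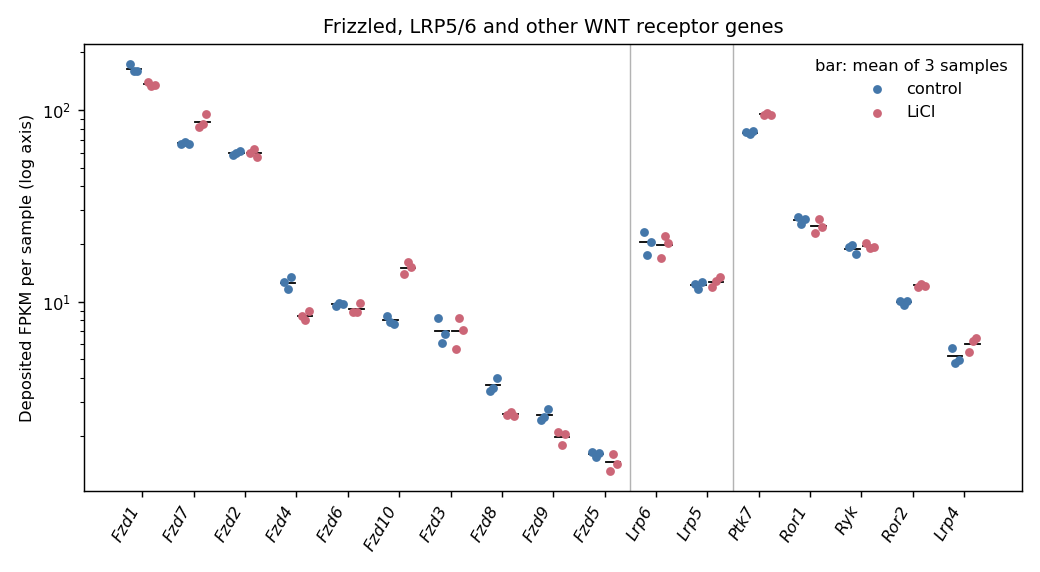
The FPKM (log axis) of the 10 *Fzd* genes, of *Lrp6* and *Lrp5*, and of 5 other receptor genes in each sample, with black bars for the mean of 3 samples per group. *Fzd10*, *Fzd7*, *Ptk7* and *Ror2* lie higher with LiCl, *Fzd1*, *Fzd4*, *Fzd8* and *Fzd9* lower, and the other 9 genes overlap.

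The LGR receptors of the R-spondins moved in opposite directions. *Lgr4*, which held 98.5% of the summed LGR FPKM in the control, had 39.0, 36.9 and 35.2 FPKM in the control and 31.1, 30.7 and 30.5 FPKM with LiCl. It fell by 0.28 on the log2 scale (SE 0.05, edgeR adjusted p = 0.0017). *Lgr5*, known both as a stem cell marker and as a target of WNT signaling, had 0.503, 0.35 and 0.52 FPKM in the control and 0.916, 0.909 and 0.915 FPKM with LiCl. It was higher in all LiCl samples, with a log2 fold change of 0.98 (SE 0.15, edgeR adjusted p = 0.00082), and passed 2-fold without control replicate 1 or 3, at log2 fold changes of 1.06 and 1.09. The level of *Lgr5* remained far below that of *Lgr4*, with 1.22% of the summed LGR FPKM in the control and 2.88% with LiCl. *Lgr6* had 11 to 24 counts per sample, a log2 fold change of -0.59 (SE 0.30) and an edgeR adjusted p of 0.14, although its groups did not overlap.

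Among the R-spondin genes, 3 of 4 were kept, of which *Rspo3* and *Rspo2* fell and *Rspo1* rose. *Rspo3* was the most abundant, with 11.7, 13.1 and 11.7 FPKM in the control and 7.87, 7.95 and 7.08 FPKM with LiCl. Its decrease of 1.61-fold was larger than the spread between the samples (log2 fold change -0.69, SE 0.07, edgeR adjusted p = 8.6e-05). *Rspo2* had low counts, 32, 29 and 22 in the control and 11, 11 and 12 with LiCl. Its log2 fold change was -1.23 (SE 0.29, edgeR adjusted p = 0.0086), and its edgeR adjusted p was 0.13 without LiCl replicates 1 and 3. *Rspo1* had 25, 38 and 43 counts in the control and 64, 74 and 41 counts with LiCl. After scaling, LiCl replicate 3 lay just above the highest control with 0.753 against 0.717 FPKM, and the log2 fold change was 0.81 (SE 0.28, edgeR adjusted p = 0.041). The call of *Rspo1* was lost without control replicates 1, 2 or 3 (edgeR adjusted p = 0.12, 0.078 and 0.051) and without LiCl replicates 1 or 2 (0.082 and 0.14). Without LiCl replicate 3, *Rspo1* passed 2-fold at a log2 fold change of 1.01, and without both LiCl replicates 1 and 3 at 1.19 (edgeR adjusted p = 0.037). *Rspo4* was not kept, with 2 to 9 counts per sample. The summed FPKM of the 4 R-spondin genes was 12.4 to 13.99 in the control and 7.95 to 9.53 with LiCl, without overlap, of which *Rspo3* held 93.6 ± 0.876% and 86.4 ± 2.845% (SD, n = 3 each).

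The genes for ligand processing also moved in opposite directions. *Wls* had 28.8, 31.1 and 28.1 FPKM in the control and 35.5, 34.1 and 35.0 FPKM with LiCl, a log2 fold change of 0.23 (SE 0.05, edgeR adjusted p = 0.0043), which was not called without LiCl replicates 1 and 3 (edgeR adjusted p = 0.094). *Porcn* had 3.13, 3.30 and 3.72 FPKM against 2.85, 2.35 and 2.50 FPKM, a log2 fold change of -0.41 (SE 0.11, edgeR adjusted p = 0.016). The call of *Porcn* was lost without control replicate 3 or LiCl replicates 2 or 3 (edgeR adjusted p = 0.071, 0.053 and 0.059).

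**Figure D5:**
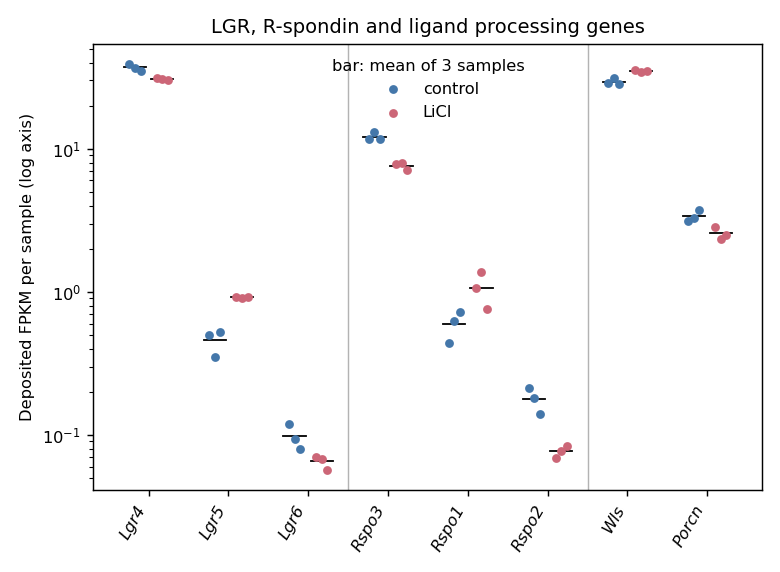
The FPKM (log axis) of the LGR genes, the kept R-spondin genes and the ligand processing genes in each sample, with black bars for the mean of 3 samples per group. *Lgr5* is at 0.909 to 0.916 FPKM with LiCl and at 0.35 to 0.52 FPKM in the control, and *Rspo3* and *Lgr4* lie below all controls.

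Beside the listed genes, 59 other genes of the pathway were examined, of which 57 were tested, 17 rose and 15 fell (edgeR adjusted p under 0.05, where 21.1% of all tested genes were higher and 22.4% lower), with a median log2 fold change of -0.04. *Axin2*, a feedback inhibitor and common readout of WNT signaling, rose by a log2 fold change of 0.92 (SE 0.05, edgeR adjusted p = 1.4e-06). Past 2-fold, *Notum*, which encodes an enzyme that inactivates WNT ligands, rose by 2.03 (SE 0.12, edgeR adjusted p = 3.6e-06), and *Kremen2*, a co-receptor of DKK1, by 1.76 (SE 0.14, edgeR adjusted p = 1.6e-05), whereas *Shisa2*, which retains FZDs in the cell, had a log2 fold change of -1.89 (SE 0.09, edgeR adjusted p = 1.1e-06). Of 8 tested genes for receptor turnover and their antagonists, 3 rose and 3 fell. Those that rose included the ligase gene *Znrf3* at 0.59 (edgeR adjusted p = 0.00014) and the antagonist gene *Sostdc1* at 0.95 (edgeR adjusted p = 0.01). Those that fell included the antagonist genes *Dkk1* and *Dkk2*, both at -0.79. *Rnf43*, the partner of *Znrf3*, had a log2 fold change of 0.10 and did not pass (edgeR adjusted p = 0.16). Of 10 genes for other secreted or surface regulators, 2 rose and 4 fell. Of 15 cytoplasmic components, 6 rose, among them *Dvl1* at 0.77 (edgeR adjusted p = 6.8e-05), and 3 fell. Of 11 nuclear components, 3 rose, among them the factor genes *Tcf7* and *Lef1*, and 2 fell, among them *Ctnnb1*. Of 11 genes for planar polarity, 3 rose, including the core gene *Celsr2* at 0.54 (edgeR adjusted p = 0.0016). The 2 that fell included the core gene *Prickle1* at -0.54 (edgeR adjusted p = 2.7e-05). Of 2 genes of norrin signaling, 1 fell. Without LiCl replicates 1 and 3, 12 of the other pathway genes rose and 8 fell. The calls lost were those of *Dvl2*, *Nkd2*, *Sostdc1*, *Tle3* and *Vangl2* among the higher genes and of *Apc2*, *Csnk1e*, *Daam1*, *Dkk3*, *Frzb*, *Ndp* and *Tcf7l2* among the lower genes.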

How the data were processed

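RNA of 6 ureter explant samples (3 water controls, 3 with LiCl) was sequenced in pairs of reads after poly-A selection. The authors deposited a table of raw counts per gene for all samples and a file of FPKM values for each sample. The submitters' processing notes name fastp 0.23, STAR 2.7, featureCounts 2.0 and DESeq2 1.40, whereas the methods of the study name another aligner. The annotation release and strand setting are not given in the sources used here, so reads of overlapping or antisense genes may not be told apart. FPKM, which the authors made, equalled counts divided by the DESeq2 size factor of the sample and a length per gene, and were used here for levels.

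Counts as deposited were filtered (filterByExpr), scaled by TMM and tested with edgeR 4.0.16 (quasi-likelihood test, Benjamini-Hochberg adjustment over 18188 genes, threshold 0.05) in R 4.3.3, with DESeq2 1.42.0 and limma 3.58.1 on log2(FPKM + pseudocount) among the alternatives. Shares were tested by two-sided exact permutation. Total counts were 28473436 to 31266945 per sample, and floors cover counting error only. Symbols came from a GENCODE table. The fits were tested on simulated data. The genes, gene lists and the rule for named genes (all listed genes, and of the other pathway genes *Axin2* and those past 2-fold) were chosen with earlier results of these data known, and other genes were named after their values were seen.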

Additional observations from a re-analysis of the deposited data

How the results depend on the processing

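No value of a listed gene changed direction from a call in any of the alternatives run (550 values kept their side of the threshold, 41 lost and 6 gained it). With LiCl replicates 1 and 3 left out, where the remaining LiCl sample is assumed to vary like the controls, 4 listed genes were higher and 1 was lower by 2-fold, and of the other pathway genes 12 were higher and 8 lower. With limma on log2(FPKM + 1), 0 listed genes were lower by 2-fold, with or without a filter on low values and also before adjustment. No log2 fold change passed -0.99 (*Wnt2*) on this scale. With a pseudocount of 0.1, 1 listed gene (*Wnt2*) was lower by 2-fold, but the filter on low values left *Wnt16* and *Rspo2* untested there. Leaving out 1 sample at a time, 8 to 10 listed genes rose and 11 to 13 fell, with 2 to 3 higher and 3 lower by 2-fold, and of the other pathway genes 17 rose and 10 to 15 fell. Same-numbered samples did not deviate together (correlations 0.03, -0.09 and 0.10), and nothing in the labels pairs them. With the replicate number as a block, 9 listed genes rose and 13 fell, 2 and 3 of them by 2-fold, and 17 and 13 other pathway genes rose and fell. With all samples kept, the calls of *Wnt4*, *Wnt5a*, *Fzd9*, *Rspo1* and *Porcn* were also lost under some of the other scalings, filters, models or tests. The cause of these shifts was otherwise not tested. Depth limits *Wnt10a*, *Wnt10b*, *Wnt16*, *Rspo1*, *Rspo2*, *Lgr6* and the genes that were not kept, and 3 samples per group limit small changes.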
